A study of Caenorhabditis elegans with 2 samples.

Results

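The vacuolar ATPase subunit genes vha-1, vha-2, vha-8, vha-9, vha-10, vha-11, vha-12, vha-13, vha-14 and vha-15 of Caenorhabditis elegans were examined for binding of a tagged protein near their 5′ ends. These 10 genes were chosen by name from the 19973 protein-coding genes of the nuclear chromosomes in the Ensembl annotation of assembly WBcel235. Binding was measured by chromatin immunoprecipitation with sequencing (ChIP-seq), in which DNA that is cross-linked to a protein is recovered with an antibody and sequenced. The strain was RW12295, in which the TY1, EGFP and 3xFLAG tags were inserted by CRISPR into the gene Y67H2A.10, and the antibody was directed against GFP. Whole young adults were collected 63 hours after synchronised growth from bleached, starved L1 larvae, and chromatin was sonicated to 200 to 800 bp. The 2 biological replicates formed the only group, so binding in different cell types was pooled and no condition was compared with another. Untagged worms were not analysed here.

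The vacuolar ATPase is a proton pump of lysosomes, endosomes, secretory vesicles and some plasma membranes. Its peripheral V1 sector hydrolyses ATP with alternating A and B subunits, which turn a central rotor that contains D and F. The stalks of E and G subunits, together with C and H, hold V1 to the membrane sector V0, where a ring of c subunits rotates past the a subunit and carries protons across. Many worm genes are trans-spliced, a reaction that replaces the first stretch of a transcript with a short leader RNA, so an annotated 5′ end need not be the place where transcription begins. Which of the 10 genes are trans-spliced was not annotated in the sources used here.

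The deposited peak lists gave, for each record, a summit and a peak signal. The submitters did not explain its scale in the sources used here. Each record of a ranked list also had an irreproducible discovery rate (IDR). It estimates, for records ranked that high or higher, which fraction would fail to recur in the other list of a compared pair. The conservative list, in which the pair was both replicates, held 709 records that merged to 666 regions with a median signal of 105. The ranked list of the same pair held 22544 records with a median signal of 37.4, of which 743 had an IDR of 0.01 or below. The IDR given below for a conservative region is that of its record in this ranked list. Each replicate also had its own ranked list, with 24546 records in replicate 1 and 31534 in replicate 2. Read counts were not used here, and the sequencing depth behind the signals is therefore unknown. A gene was counted as carrying a record when its summit lay between 500 bp upstream and 100 bp downstream of an annotated 5′ end. All 10 genes had 1 annotated 5′ end each, at the same base in Ensembl and RefSeq.

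The sequence under the summit is shown for 4 of the genes, vha-1, vha-8 and vha-12 as members with a conservative summit in the window, and vha-15 as the member whose record lay just past the threshold. Each line holds the 101 bases centred on the summit, from the RefSeq sequence of WBcel235 on the plus strand, which is also the strand of all 4 genes. The positions were chrIII:9780742-9780842 for vha-1, chrIV:6790535-6790635 for vha-8, chrX:4190693-4190793 for vha-12 and chrX:2237596-2237696 for vha-15. Capitals mark the 6-letter word GTCTCG, which was chosen after the sequences had been seen.
vha-1: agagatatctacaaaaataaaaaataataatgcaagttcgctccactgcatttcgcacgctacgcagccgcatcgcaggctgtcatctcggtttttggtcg
vha-8: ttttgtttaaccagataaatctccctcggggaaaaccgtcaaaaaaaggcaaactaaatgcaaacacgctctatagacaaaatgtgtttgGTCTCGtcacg
vha-12: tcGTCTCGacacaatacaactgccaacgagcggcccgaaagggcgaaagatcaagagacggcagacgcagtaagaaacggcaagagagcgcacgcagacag
vha-15: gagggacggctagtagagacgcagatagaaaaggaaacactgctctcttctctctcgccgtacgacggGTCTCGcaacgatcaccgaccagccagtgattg

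The marked word stood on the strand of the gene in each of the 3 windows that held it. It lay 449 bp upstream of the 5′ end of vha-8, 399 bp upstream of that of vha-12 and 247 bp upstream of that of vha-15. Counted on both strands, it occurred in 3 of 6 member windows, the other windows being those of vha-1 and, not shown above, of vha-10 and vha-13. Of the windows at all 666 conservative regions, 13.96% held it. Of windows of the same length centred 206 bp upstream of every protein-coding gene, 2.86% did. In all, 11 words of this length occurred in at least 3 of the 6 member windows, and CAAAAA occurred in 4. The marked word is short, these windows were few and it was picked from them, so its count describes these sequences and no more. The longer word GTCTCGCA occurred in the window of vha-15 and in no other member window, against 3.90% of conservative regions and 0.340% of the upstream windows. None of the 6 member windows held ACGCGC, which occurred in 17.3% of conservative regions and in 2.38% of upstream windows. None held CACGTG, a word bound by many basic helix-loop-helix proteins (4.35% of regions and 1.53% of upstream windows), or TGATAA, which zinc finger factors of the worm intestine bind (2.10% and 11.0%). Across the whole promoter window of 500 bp upstream to 100 bp downstream, GTCTCG occurred in 15.6% of all promoters. Among the members it occurred at vha-8, vha-12, vha-13, vha-14 and vha-15. The promoters of vha-8, vha-12 and vha-15 include the occurrences from which the word was picked. In the same promoter windows TGATAA occurred at vha-9, vha-13 and vha-15 (48.9% of all promoters), ACGCGC at vha-10 (10.2%) and CACGTG at no member (10.4%).

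Base composition differed widely among the members. The GC content of the 101 bases was 62.4% at vha-13, 56.4% at vha-12, 55.4% at vha-15, 44.6% at vha-1, 43.6% at vha-10 and 39.6% at vha-8. Over all 666 conservative regions it was 48.98% ± 8.04 (SD), so vha-13 lay in the upper tail, with 3.15% of regions at or above its value, while the other 5 had between 18.02% and 88.6% of regions at or above theirs. In the reference sequence, 30 of the 101 bases at vha-1 and 19 at vha-15 were soft-masked as repeats, and none were at the other members.

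Among the 10 genes, 4 had a conservative summit in the promoter window, namely vha-1, vha-8, vha-10 and vha-12, against 462 of 19973 protein-coding genes (2.31%). These 4 genes encode a ring subunit of V0 and the E, G and B subunits of V1, so that 1 of 2 V0 members and 3 of 8 V1 members carried a region. None of the 11 other subunit genes did, and the share over the 21 subunit genes was therefore 4 of 21. The members were chosen with earlier results of these data known, and their share is a description. Within 2 kb of the 5′ end, 6 of the 10 genes had a conservative summit, with vha-2 and vha-13 added, against 4.61% of protein-coding genes.

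In the ranked list of the pair, which is far less selective, 7 of the 10 genes had a summit in the window, against 19.8% of protein-coding genes. They were vha-1, vha-8, vha-10, vha-11, vha-12, vha-14 and vha-15. In the ranked list of replicate 1, 7 of the 10 genes had one, against 22.8% of protein-coding genes, and in that of replicate 2 also 7, against 27.8%. The genes found in all 3 ranked lists were vha-1, vha-8, vha-10, vha-12 and vha-15. The share of protein-coding genes found in all 3 was not counted. The list of the pair derives from the same 2 replicates, so the 3 lists are not independent. The genes vha-2, vha-9, vha-11, vha-13 and vha-14 had a window record in some of these lists and not in others, at the signals given for each gene in turn.

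**Figure D1:**
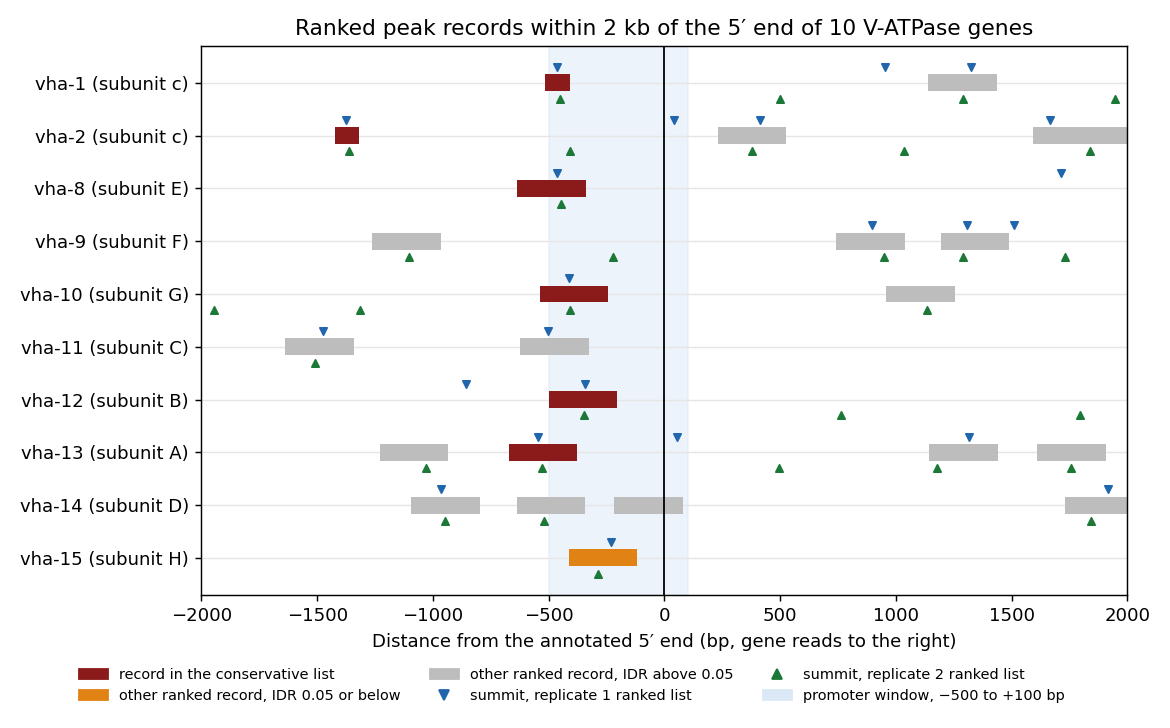
Positions of peak records within 2 kb of the annotated 5′ end of each of the 10 genes, in bp, with each gene drawn reading to the right. Bars are records of the ranked list of the pair, drawn at their width and coloured by whether they are in the conservative list and by IDR, and triangles are summits in each replicate's own ranked list. The 4 conservative records in the shaded window lie in its upstream part, that of vha-13 lies just outside it, and that of vha-2 is the record of vha-1.

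The V0 members were vha-1 and vha-2, which both encode c subunits of the proton-carrying ring and lie in tandem on the plus strand of chromosome III. The gene vha-1 (WBGene00006910, chrIII:9781254-9781763) had the highest signal of any member. Its region, chrIII:9780772-9780876, lay between genes with its summit 462 bp upstream of the 5′ end, and its signal of 228 ranked 50 of 666. In the ranked list it stood 58 of 22544, at an IDR of 1e-05, the smallest value listed. The signal was 112 in replicate 1 and 124 in replicate 2, with summits 15 bp apart. It was thus high in both, above 99.7% of the records of replicate 1 and 99.8% of those of replicate 2. The region was narrow, at 105 bp against a median of 296 bp in the conservative list. Its record was 67 bp wide in replicate 2 but 270 bp wide in replicate 1, which is the median width of that list. The divergent gene sqv-3, which encodes a galactosyltransferase of glycosaminoglycan synthesis, begins 438 bp on the other side of the same summit. The 5′ ends of both genes are 900 bp apart, and the summit lay slightly nearer to that of sqv-3.

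The gene vha-2 (WBGene00006911, chrIII:9782164-9783224) had no record of its own among the conservative regions. It starts 400 bp after the end of vha-1 and is followed closely by R10E11.6, so vha-1 has the first 5′ end of a run of 3 same-strand genes. The nearest conservative summit was that of vha-1, 1372 bp upstream of the 5′ end of vha-2. The nearest record in the ranked list lay in a coding exon of vha-2, 378 bp downstream, with a signal of 46.8 and an IDR of 0.542. In the window, replicate 1 listed a record 41 bp downstream with a signal of 17.4, and replicate 2 listed a different one 410 bp upstream with a signal of 17.3. Both were below the median of their lists, 22.3 in replicate 1 and 19.7 in replicate 2.

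The catalytic core of V1 is built from the A subunit, encoded by vha-13, and the B subunit, encoded by vha-12. The gene vha-12 (WBGene00006921, chrX:4191094-4193144, plus strand) had its region at chrX:4190595-4190890, with the summit 351 bp upstream. The signal was 147, rank 148 of 666, at an IDR of 2.87e-05. It was 94.7 in replicate 1 and 61.4 in replicate 2, with summits 4 bp apart. The record thus lay above 99.6% of those of replicate 1 and 99.1% of those of replicate 2. No other gene had a 5′ end within 500 bp of this summit, and the nearest protein-coding gene upstream, mrp-6, begins 4338 bp away on the other strand. Among the 4 members with a conservative summit in the window, vha-12 was the one whose region shared neither a divergent promoter nor the body of another gene.

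The gene vha-13 (WBGene00013025, chrV:14351709-14354422, plus strand) had a strong region just outside the window. The region chrV:14351037-14351332 had its summit 524 bp upstream of the 5′ end, just beyond the edge of 500 bp, in the 3′ UTR of cept-2. The signal was 170, rank 107 of 666, at an IDR of 1.85e-05. It was 104 in replicate 1 and 65.6 in replicate 2, with summits 20 bp apart. Among the conservative regions within 2 kb of a member, only that of vha-1 had a higher signal. The gene cept-2, which encodes an enzyme of the final step of phospholipid synthesis, ends 226 bp before vha-13 and has the first 5′ end of a run of 4 same-strand genes, cept-2, vha-13, Y49A3A.3 and cyn-1. At the 5′ end of cept-2 a ranked record lay 332 bp upstream with a signal of 73.4 and an IDR of 0.0205. The conservative summit nearest to that 5′ end was the same one as for vha-13, 3419 bp downstream. The higher of these signals thus stood before the inner gene vha-13 and not at the first 5′ end. In the window of vha-13 itself, replicate 1 listed a record 54 bp downstream with a signal of 30.9 and an IDR of 0.896, and the other lists none.

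The rotor subunits D and F are encoded by vha-14 and vha-9, and neither had a conservative summit within 2 kb. For vha-14 (WBGene00010130, chrIII:9508100-9509757, plus strand) the ranked list held 2 records in the window. The first lay 68 bp upstream with a signal of 45.6 and an IDR of 0.711, and the second 491 bp upstream with a signal of 33.8 and an IDR of 0.873. Neither replicate's own list had a summit in the window, and the nearest conservative summit was 3519 bp upstream. For vha-9 (WBGene00006918, chrII:10303050-10303713, minus strand) the ranked list held none in the window, and the nearest conservative summit was 55160 bp away. Replicate 2 alone listed a record 223 bp upstream, with a signal of 23.8.

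The surroundings of vha-9 held 4 tRNA genes within 2 kb. Of the 3 ranked records within that distance, the 2 with the highest signals were next to such genes. The record 1114 bp upstream, with a signal of 59.1 and an IDR of 0.722, had its summit inside the tRNA gene WBGene00014637. The record 1341 bp downstream, with a signal of 64.8 and an IDR of 0.761, had its summit 27 bp from the tRNA gene WBGene00014635. The gene gcy-4, which encodes a receptor-type guanylyl cyclase, ends 425 bp before vha-9 and has the first 5′ end of a run of 3 with vha-9 and clpp-1. The ranked record nearest to that 5′ end lay 260 bp downstream of it with a signal of 32.8 and an IDR of 0.873.

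The stalk subunits E and G are encoded by vha-8 and vha-10, and both had a conservative summit in the window. For vha-8 (WBGene00006917, chrIV:6791074-6792455, plus strand) the region was chrIV:6790437-6790732, with its summit 489 bp upstream and between genes. The signal was 141, rank 161 of 666, at an IDR of 3.60e-05. It was 63.6 in replicate 1 and 84.0 in replicate 2, with summits 15 bp apart, above 98.9% of the records of replicate 1 and 99.6% of those of replicate 2. The summit lay 97 bp upstream of the divergent gene C17H12.2, much nearer than to vha-8, and the 5′ ends of the pair are 586 bp apart. The annotated non-coding RNA gene C17H12.33 also begins within reach, with its 5′ end 470 bp from the summit. No same-strand gene ended within 500 bp upstream of vha-8.

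The gene vha-10 (WBGene00006919, chrI:5609341-5610270, minus strand) had the weakest conservative region of the 4. The region chrI:5610512-5610807 had its summit 390 bp upstream, inside an intron of trpp-8, which encodes a subunit of a vesicle tethering complex. Its signal of 70.8 ranked 654 of 666 in the conservative list and 1048 of 22544 in the ranked list, at an IDR of 0.00608. The signal was 43.0 in replicate 1 and 38.8 in replicate 2, close to each other and with summits 3 bp apart. The IDR within each replicate was 0.172 in replicate 1 and 0.219 in replicate 2, and the region was in neither thresholded list of a single replicate. A ranked record of similar signal, 73.7, lay 1105 bp downstream of the 5′ end, past the end of vha-10, with an IDR of 0.0719.

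The gene vha-10 also lies in the longest run of close same-strand genes among the members. It is the third of 5, after xrep-4 and trpp-8 and before ubl-5 and tns-1, and trpp-8 ends 103 bp before it. The 5′ end of xrep-4, the first of the run, had its nearest ranked record 205 bp downstream with a signal of 37.0 and an IDR of 0.706, and its nearest conservative summit was that of vha-10, 7891 bp downstream. As with vha-13, the conservative region stood before an inner gene of the run and not at its first 5′ end. For vha-1 it stood upstream of the first gene. The annotation used here held no operon records, so these runs are of genes on 1 strand with gaps of at most 500 bp and are not called operons.

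The remaining V1 members were vha-15, which encodes the regulatory H subunit, and vha-11, which encodes the C subunit that links stalk and membrane sector. The record of vha-15 (WBGene00020507, chrX:2237911-2240255, plus strand) was the member record just outside the threshold. It lay at chrX:2237498-2237793, with the summit 265 bp upstream, a signal of 75.5, rank 865 of 22544 and an IDR of 0.0284. Its signal was higher than the 70.8 of vha-10, which passed at an IDR of 0.00608. In replicate 1 the signal was 32.7 at 229 bp upstream, and in replicate 2 it was 41.1 at 286 bp upstream. Both were high in their lists, above 90.04% of records in replicate 1 and 97.4% in replicate 2. The IDR within each replicate was nevertheless high, at 0.768 in replicate 1 and 0.802 in replicate 2. The nearest conservative summit was 5123 bp downstream.

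For vha-11 (WBGene00006920, chrIV:2307815-2314567, minus strand) the ranked list held a record 476 bp upstream with a signal of 34.5, below the list's median, and an IDR of 0.873. Replicate 1 listed a record 502 bp upstream, just outside the window, and replicate 2 none in the window. The same-strand gene upstream is vha-3, a further c subunit gene, which ends 892 bp before vha-11, with the 5′ ends 1378 bp apart. The nearest conservative summit was the same for both, 2401 bp upstream of vha-11 and 1023 bp upstream of vha-3. That region, chrIV:2316820-2317115, had a signal of 92.8 and lay 35 bp upstream of the 5′ end of a transcript of Y38F2AL.12 on the other strand.

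The signal in the ranked list placed the members in the following order. The share of ranked records at or below the member's own was 99.7% for vha-1, 99.3% for vha-12, 99.2% for vha-8, 96.2% for vha-15, 95.4% for vha-10, 73.7% for vha-14 and 41.0% for vha-11. The record of vha-13 outside the window stood at 99.5%. The spread of the shares over both replicates' own lists was 0.0646 percentage points for vha-1, 0.457 for vha-8 and 0.325 for vha-12 (SD, n = 2). The places of vha-12 and vha-8 differed by less than that spread, and those of vha-15 and vha-10 by less than the SD of 5.17 for vha-15. The last 2 genes had no window record in the replicate lists.

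The replicates differed more in signal at some of these regions than at others. For the members the log2 ratio of replicate 2 over replicate 1 was 0.40 at vha-8, 0.15 at vha-1, -0.15 at vha-10, -0.63 at vha-12 and -0.66 at vha-13. Over the 657 conservative regions with a record in both ranked lists, the median log2 ratio was -0.02, with the tenth and ninetieth percentiles at -0.57 and 0.55. The ratios of vha-8, vha-1 and vha-10 lay between those percentiles. At vha-12 and vha-13, the subunits of the catalytic core, replicate 1 exceeded replicate 2 by more than it did at most regions, with 8.07% and 7.46% of the regions at or below their ratios. The summits of the 5 member regions were 3 to 20 bp apart between replicates, against a median of 23 bp over the same 657 regions.

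**Figure D2:**
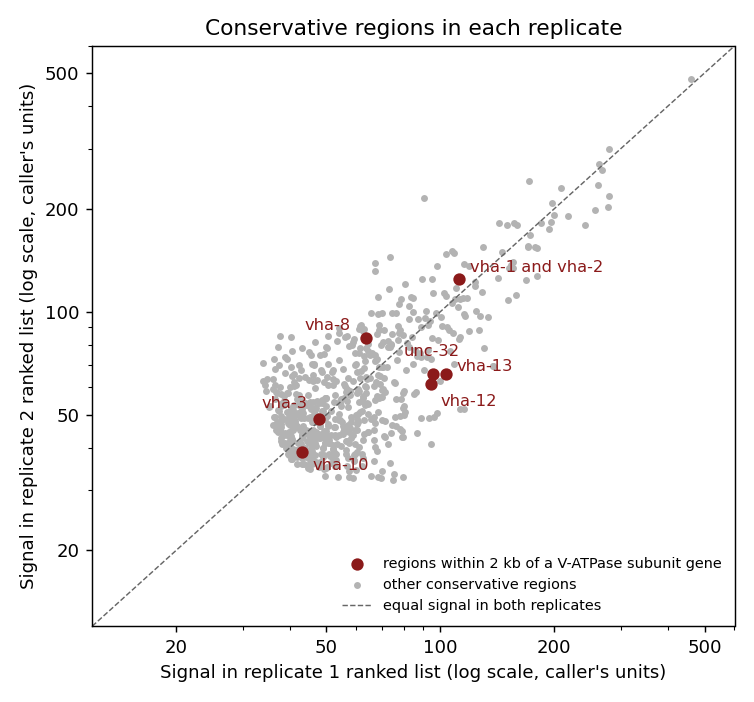
Signal of the conservative regions in the ranked list of replicate 1 (horizontal) and of replicate 2 (vertical), in the caller's units on log scales, with regions within 2 kb of a vacuolar ATPase subunit gene in dark red. The region of vha-1 and vha-2 lies highest at 112 and 124, that of vha-10 at the low corner at 43.0 and 38.8, and those of vha-12 and vha-13 lie below the line of equal signal.

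The summits of the members lay far upstream within the window. They were 351 bp upstream at vha-12, 390 bp at vha-10, 462 bp at vha-1 and 489 bp at vha-8. Over the 462 protein-coding genes with a conservative summit in the window the median was 206 bp upstream, with quartiles at 102.5 and 307.75 bp. All 4 members therefore lay beyond the upper quartile. At or beyond the distance of vha-12 lay 84 of the 462 genes (18.2%), the 4 members included. A summit as far or farther was found for 12.6% of the 462 genes at vha-10, 4.11% at vha-1 and 1.52% at vha-8. At vha-1 and vha-8 the distance is measured across a divergent promoter whose other gene begins nearer to the summit. When each summit was given only to the nearest 5′ end, vha-10 and vha-12 kept theirs, that of vha-1 went to sqv-3 and that of vha-8 went to C17H12.2. With a window of 250 bp upstream to 50 bp downstream, none of the 10 genes had a conservative summit. The share of all protein-coding genes was not counted for that narrow window. The upper quartile of the 462 genes, 307.75 bp, lies outside it too.

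**Figure D3:**
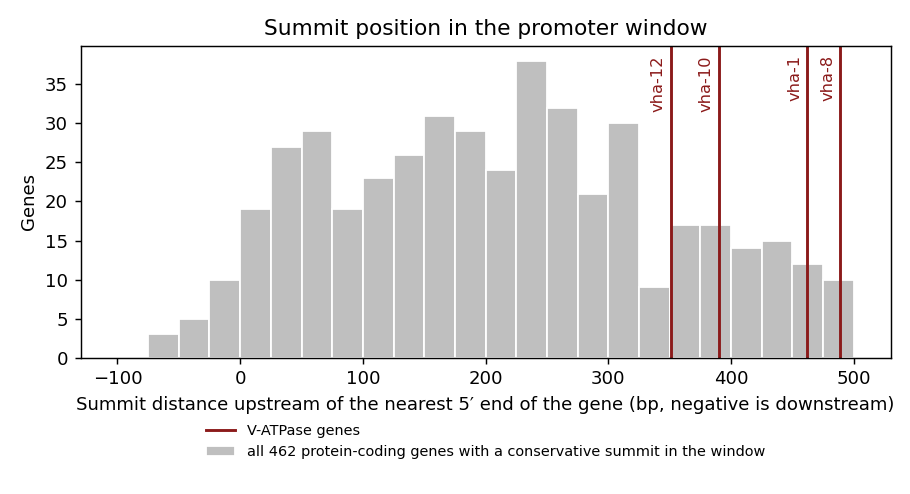
Distance of the conservative summit upstream of the 5′ end, in bp, with vha-12, vha-10, vha-1 and vha-8 as dark red lines. Grey bars are the 462 protein-coding genes with such a summit, except those with it more than 100 bp downstream of their nearest 5′ end. The 4 lines lie between 351 and 489 bp, to the right of most bars.

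None of the 11 other subunit genes had a conservative summit in the window, but some had window records in the ranked list with signals above those of members. The highest, 84.0 at vha-18, exceeded the 75.5 of vha-15 and the 70.8 of vha-10. The V0 a subunit, which lines the proton path, is encoded by vha-5, vha-6, vha-7 and unc-32. Of these, unc-32 had a conservative summit 1363 bp upstream with a signal of 159, but it lay 121 bp upstream of the divergent gene lin-9, and the record in the window of unc-32, 204 bp upstream, had a signal of 64.9 and an IDR of 0.0753. In the windows of vha-5, vha-6 and vha-7 no list had a summit. Of the ring genes, vha-3 had a record of signal 33.2 in its window and vha-4 one of signal 52.0 at an IDR of 0.353, which lay 150 bp from each of vha-4 and the divergent T01H3.5.

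The gene vha-18, which encodes a further H subunit, had the highest window signal of the 11. Its record in the ranked list lay 301 bp upstream with a signal of 84.0 and an IDR of 0.228, and 303 bp from the divergent gene pos-1. It was in the pooled list and the thresholded list of replicate 1, but not in the conservative list or that of replicate 2. The e subunit gene vha-17 had a record 385 bp upstream with a signal of 62.5 and an IDR of 0.755, and the higher of both window records of the accessory subunit gene vha-19 had a signal of 31.2. The d subunit gene vha-16 had a window record in replicate 2 only. The accessory subunit gene vha-20 had none, but it lies 133 bp after the same-strand gene sym-4, whose 5′ end had a conservative summit 189 bp upstream with a signal of 134. In all, 6 of the 11 genes had a ranked summit in the window, against 19.8% of protein-coding genes. In the list of replicate 1, 3 of the 11 did, close to the 22.8% of protein-coding genes, and in that of replicate 2, 7 did, against 27.8%.

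The 11 partner genes, chosen by name, act in pump assembly, signalling at the lysosome surface, the lysosome (cup-5) or transcription (hlh-30). Of these, 2 had a conservative summit in the window, against 2.31% of protein-coding genes, and 7 had a ranked one, against 19.8%. The gene rbc-2, which encodes a rabconnectin homologue, had its summit 138 bp upstream with a signal of 98.1, and the same summit lay 236 bp upstream of ndua-8, whose product is a subunit of a respiratory chain complex. The gene lmtr-3, which encodes a subunit of the Ragulator complex, had its summit 57 bp upstream with a signal of 139, and the same summit lay 262 bp upstream of atp-5, an ATP synthase subunit gene. The ranked records of hlh-30, let-363, raga-1, ragc-1 and cup-5 did not reach the conservative list. Annotated 5′ ends numbered 10 at hlh-30 and 5 at cup-5, so more windows were searched at these genes than at a member.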

How the data were processed

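Peak lists were deposited on the ce11 build, which is assembly WBcel235, per the labels and the derivation records deposited with them. By those records the authors called peaks on each replicate and on pooled reads against a control, and the thresholded lists derive from 1 further file of content not stated. Neither aligner nor peak caller is named in the sources used here. The deposited signal is the caller's peak signal, of unstated scale. The deposited score is the authors' rescaled IDR, at most 1000, and the ranked lists hold the deposited −log10 of the IDR. In the ranked lists of the series 16 columns of values of the compared pair were not used.

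Overlapping records of a thresholded list were merged to the region of highest signal. Genes and 5′ ends came from Ensembl release 115, sequence and soft-masking from RefSeq. Python 3.11.15, numpy 2.4.6 and pandas 2.3.3 were used, and assignment of summits was tested on simulated data. A share of records is the share of a list at or below a signal. Member genes, gene lists and words were chosen with earlier results of these data known, so no test was made and counts stand beside those of all genes. The genes named were all 21 subunit genes, every gene with a 5′ end within 500 bp of a member's summit, and partner genes with a conservative summit. The neighbours in a run of genes, the noncoding genes near summits and other partners were named once their values were known. Alternatives were other lists, IDR limits, windows and 5′ ends, and each replicate left out.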

Additional observations from a re-analysis of the deposited data

How the results depend on the processing

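The count of 4 members with a conservative summit in the window fell to 0 with a window of 250 bp upstream to 50 bp downstream, and to 2 when each summit went to the nearest 5′ end only. It was 3 with either replicate left out, which here means the other replicate's own thresholded list. Those lists held 324 regions in replicate 1 and 413 in replicate 2, against 666. They lacked vha-10, although the ranked lists of both replicates held it. The count was 3 at an IDR of 0.001 and 5 at an IDR of 0.05, where vha-15 was added. It was also 5, with vha-13, for a window from 1000 bp upstream or for any overlap of record and window. The 7 members with a ranked summit became 1, vha-14, in the narrow window. Among the other subunit genes the count of 0 became 1, vha-18, in the pooled list, and was 0 to 1 with a replicate left out. The share of all protein-coding genes was not counted at these alternative settings, so these counts have no background beside them.

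The share of ranked records at or below a member's signal had these values without replicate 1 and without replicate 2. They were 99.7% to 99.8% for vha-1, 98.9% to 99.6% for vha-8, 96.80% to 96.84% for vha-10, 99.1% to 99.6% for vha-12 and 90.04% to 97.4% for vha-15. Among promoter records only, the share was 99.2% for vha-1, 97.7% for vha-8, 88.7% for vha-10, 36.6% for vha-11, 97.9% for vha-12, 64.4% for vha-14 and 90.1% for vha-15. For vha-11 and vha-14 no replicate's own list held a window record, so leaving out a replicate gave no value. In all, including the values above, 36 alternative values stayed within the limit and 16 did not. The limit was 1.5 times the count reported, or 1 SD of the replicates for a share. For the shares, that SD came from the same replicate values that were set against it, so the limit is not independent of them. For vha-11 and vha-14 the SD was entered as 0, so their shares could not stay within it. The RefSeq 5′ ends, added after the data had been seen, changed no count. No paired analysis was possible because the replicates form 1 group. Sequencing depth is unknown, and with 2 replicates the spread between them is only roughly known.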
